A study of Mus musculus with 16 samples.

Results

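Hub bins are 25-kb stretches of DNA at which many different chromatin-associated RNAs of the same chromosome were recorded. They were taken from the deposited RNA–DNA pairs of mouse embryonic stem cells (mESCs), as the DNA bins with at least 6 different RNA names in cis in the Input table, in the H3K27me3-RADIP table, or in both. Of 49018 bins with a cis pair in either table, 283 were hub bins, which is 0.577% of the bins. The Input table had 31 of them, the H3K27me3-RADIP table had 264, and 12 were hubs in both. The bins were thus selected on the counts of RNA names in these tables, and those counts are given as a description with no test.

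In RADIP, RNA is ligated to nearby chromatin DNA by means of a bridge adaptor, and the ligated molecules are then recovered with an antibody. Both groups were PGK12.1 cells, an mESC line, fixed in 1% formaldehyde with no other treatment named for either group. The Input libraries came from lysate that had not been selected, and the H3K27me3-RADIP libraries were selected with an antibody against H3K27me3. The labels list 8 libraries for each group, whereas the study describes 4 biological replicates, and the authors had merged all of them into 1 table of significant pairs per group, so no replicate error can be given. Every line of a table pairs 1 RNA tag with 1 DNA tag. The Input table held 1300602 cis pairs in 63666 combinations of an RNA and a bin, and the H3K27me3-RADIP table held 1409822 cis pairs in 73077 combinations, which is 1.148 times as many. Each combination had at least 7 pairs and passed the authors' limit of 0.1 on the adjusted P-value, so an RNA given as 0 pairs in a library was not listed there, and fewer pairs than the limit requires may have been present.

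H3K27me3 is the histone mark laid down by Polycomb repressive complex 2 (PRC2), and in mESCs it covers CpG-rich promoters of silent developmental genes, among them the Hox clusters. PRC2 binds many RNAs with little sequence preference, and nascent transcripts remain tethered to chromatin near the gene that makes them. A DNA bin can therefore carry the transcripts of its own genes together with RNAs made elsewhere on the chromosome, here called arriving RNAs. An RNA was counted as arriving where the span of its own tags did not overlap the bin.

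The identity of the labelled cells was checked on the RNA tags. Of 12 pluripotency markers, 7 were listed, Input holding 3014 of their pairs and H3K27me3-RADIP 3170, led by Esrrb. Pou5f1, Nanog, Dppa3, Tdgf1 and Utf1 had 0 in both. Endoderm markers (3 of 6) had 47 and 78 pairs, neural markers (2 of 4) had 11 and 33, feeder fibroblast markers (1 of 6) had 0 and 7, and the 4 mesoderm markers had 0.

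The 4 hub bins with the most RNA names held the starts of Lmx1b, of Foxf1 and Fendrr, of Klhl26 and Tmem59l, and of Scn4b and Gm10684. The 250 bases upstream of the RefSeq starts of 6 of these genes are shown because they belong to the bins with the most names and because CG counts upstream of gene starts were higher in hub bins than elsewhere. They were read 5′ to 3′ from RefSeq promoter sequences on GRCm38.p6, with CG dinucleotides in capitals. The motif searched was CG, which reads the same on both strands.
Lmx1b, chr2:33641099-33641348, minus strand, 19 CG: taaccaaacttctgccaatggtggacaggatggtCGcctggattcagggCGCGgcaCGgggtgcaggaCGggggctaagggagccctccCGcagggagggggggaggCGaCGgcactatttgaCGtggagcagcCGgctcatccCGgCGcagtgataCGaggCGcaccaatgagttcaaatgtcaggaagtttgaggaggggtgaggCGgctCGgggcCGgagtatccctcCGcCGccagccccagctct
Fendrr, chr8:121083111-121083360, minus strand, 23 CG: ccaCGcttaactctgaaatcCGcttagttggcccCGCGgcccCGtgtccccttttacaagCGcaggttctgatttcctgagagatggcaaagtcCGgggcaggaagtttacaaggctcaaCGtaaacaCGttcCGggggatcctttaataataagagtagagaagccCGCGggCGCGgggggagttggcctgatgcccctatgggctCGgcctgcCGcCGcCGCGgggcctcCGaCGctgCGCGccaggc
Klhl26, chr8:70476946-70477195, minus strand, 14 CG: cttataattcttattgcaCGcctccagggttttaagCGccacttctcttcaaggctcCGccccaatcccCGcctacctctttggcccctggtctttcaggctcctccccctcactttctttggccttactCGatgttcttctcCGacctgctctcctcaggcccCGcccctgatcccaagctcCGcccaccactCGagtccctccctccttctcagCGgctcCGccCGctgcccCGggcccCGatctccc
Tmem59l, chr8:70487349-70487598, minus strand, 16 CG: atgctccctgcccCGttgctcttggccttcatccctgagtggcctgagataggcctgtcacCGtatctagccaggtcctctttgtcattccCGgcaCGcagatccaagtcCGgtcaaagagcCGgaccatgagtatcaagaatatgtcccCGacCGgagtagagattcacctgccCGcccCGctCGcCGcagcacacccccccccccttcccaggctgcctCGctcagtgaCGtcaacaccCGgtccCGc
Scn4b, chr9:45138374-45138623, plus strand, 23 CG: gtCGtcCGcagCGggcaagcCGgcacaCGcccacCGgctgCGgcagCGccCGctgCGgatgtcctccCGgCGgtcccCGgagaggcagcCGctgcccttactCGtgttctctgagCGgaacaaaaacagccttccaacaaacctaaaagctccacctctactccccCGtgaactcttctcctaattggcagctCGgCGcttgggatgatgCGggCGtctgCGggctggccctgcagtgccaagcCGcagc
Gm10684, chr9:45135607-45135856, minus strand, 2 CG: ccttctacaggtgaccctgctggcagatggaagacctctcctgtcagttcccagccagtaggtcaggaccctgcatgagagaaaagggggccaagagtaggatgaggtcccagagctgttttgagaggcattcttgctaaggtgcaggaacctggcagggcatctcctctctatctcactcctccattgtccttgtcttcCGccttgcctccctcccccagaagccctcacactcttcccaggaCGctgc
The Lmx1b, Fendrr and Scn4b promoters had between 19 and 23 CG in 250 bases, Klhl26 and Tmem59l had 14 and 16, and Gm10684 had 2. Of 313 RefSeq starts in hub bins, 62.3% had at least 10 CG upstream, with a median of 14. Of 22581 starts in all bins with a cis pair the share was 47.61%, and of all 32851 starts it was 37.8%, with medians of 9 and 6. A CG count describes the letters of the window only. For some genes the RefSeq start differs from the GENCODE start that placed the gene in its bin. The GENCODE start of Scn4b is 45138395, so most of its window lies inside that gene model. That of Lmx1b is 33640511, at some distance from its window.

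The number of RNA names per bin fell steeply in both libraries, and H3K27me3-RADIP had the longer tail. In Input, 149 bins had 5 names, 29 had 6 and 2 had 7, which was the highest count. In H3K27me3-RADIP, 521 bins had 5 names, 184 had 6, 57 had 7, 19 had 8, 2 had 9 and 2 had 10. Most hub bins lay just inside the limit: the larger of the 2 counts was 6 in 202 hub bins, 7 in 58, 8 in 19 and 9 or 10 in 4. Just outside it lay 599 bins whose larger count was 5.

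**Figure D1:**
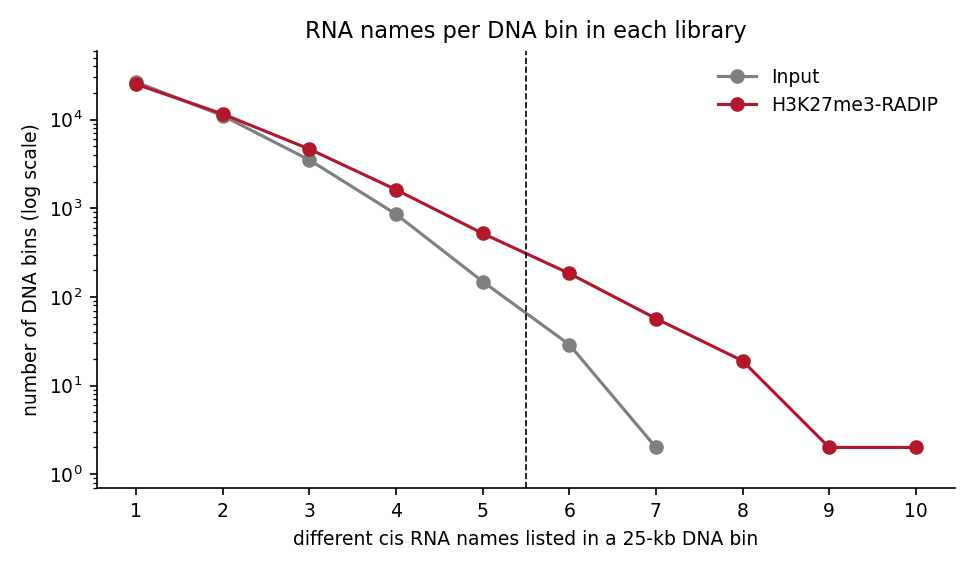
Number of 25-kb DNA bins (vertical axis, log scale) with each number of different cis RNA names (horizontal axis) in the merged Input and H3K27me3-RADIP tables, with a dashed line at the limit for hub bins. Input ended at 7 names with 2 bins, and H3K27me3-RADIP went on to 10 names with 2 bins.

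The hub bins carried a median of 3 RNA names in Input and 6 in H3K27me3-RADIP, with means of 3.42 and 6.26. H3K27me3-RADIP had more names than Input at 257 of the 283 hub bins, fewer at 20 and the same number at 6. Over all 49018 bins it had more at 32.7% and fewer at 21.4%. At least 2 more names were listed in H3K27me3-RADIP at 236 hub bins, against 8.0% of all bins, and at least 2 more in Input at 11, against 2.54% of all bins. The rule takes the larger of both counts, so the direction at these bins was in part fixed by their choice. The 31 Input hub bins showed the reverse, as a median of 6 names in Input and 5 in H3K27me3-RADIP, with 20 lower in H3K27me3-RADIP, 5 higher and 6 equal. The 12 bins that were hubs in both libraries made up 38.7% of the Input hub bins (95% Wilson interval 23.7 to 56.2) and 4.55% of the H3K27me3-RADIP hub bins (2.62 to 7.78). The second share rested on the limit and the bin borders: it was 10.57% with 5 names as the limit, 0 with 8 names and 12.9% with shifted bins. With H3K27me3-RADIP cut to the 63666 cis combinations of lowest adjusted P-value, the number in Input, 154 of its bins and 31 Input bins were hubs.

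**Figure D2:**
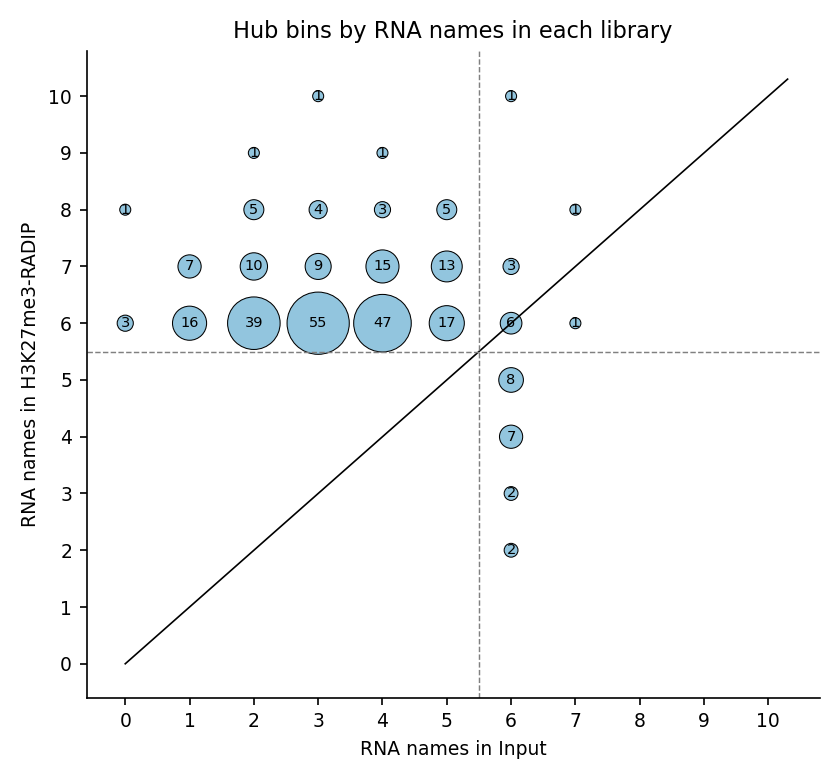
RNA names in Input (horizontal axis) and in H3K27me3-RADIP (vertical axis) at the 283 hub bins, where each circle is a pair of counts, the number in it and its area give the bins, dashed lines mark the limit and the diagonal marks equal counts. Most hub bins, 257, lay above the diagonal, and 4 had no name in Input.

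Hub bins held more pairs than other bins, and the RNAs at them as a whole lay farther away, though not at the hub bins of Input. They held 16951 cis pairs in Input, or 1.30% of its cis pairs (1.28 to 1.32), and 31998 in H3K27me3-RADIP, or 2.27% (2.25 to 2.29). The difference was 0.966 percentage points (Newcombe interval 0.935 to 0.998), and each interval covers counting error within the merged tables only. Per hub bin this was 59.9 pairs in Input and 113 in H3K27me3-RADIP, while other bins had 26.3 and 28.3. More pairs in a bin also let more RNAs pass the limit, so the number of pairs and the number of names are not separate measures.

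The rule did not name distance, but a 25-kb bin overlaps few genes, so additional names are mostly those of distant RNAs and the distances below are bound up with the choice of bins. At hub bins the RNA tag lay a median of 71.7 kb from the DNA tag in Input but 145 kb in H3K27me3-RADIP, and at other bins 43.8 and 67.4 kb. Pairs over 100 kb apart made up 45.1% of the hub pairs in Input (44.3 to 45.8) and 56.1% in H3K27me3-RADIP (55.5 to 56.6). Other bins had 36.2% and 43.4%. The hub shares differed by 11.03 points (10.1 to 11.96), and those at other bins by 7.14 points (7.02 to 7.25). The first of these differences comes from bins that mostly passed the limit in H3K27me3-RADIP. At the 252 hubs of H3K27me3-RADIP alone the share over 100 kb was 48.4% in Input and 58.7% in H3K27me3-RADIP, and at the 12 hubs of both libraries 29.8% and 41.3%. The 19 hubs of Input alone went the other way, with 35.9% (33.8 to 38.0) and 31.2% (29.1 to 33.4), and at 15 of the 19 the median distance was shorter in H3K27me3-RADIP. By median distance, the 12 hubs of both libraries (9.12 kb in Input, 36.4 kb in H3K27me3-RADIP) lay nearer than other bins. So did the 19 of Input alone (38.8 and 30.5 kb). Hub pairs over 1 Mb were 8.65% in Input and 14.4% in H3K27me3-RADIP, and those over 5 Mb were 1.36% (1.20 to 1.55) and 3.98% (3.77 to 4.195). Other bins had 0.341% and 1.29% over 5 Mb. Pairs of 1 RNA and 1 bin share their source, so these intervals are narrower than replicate error would be.

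Arriving RNAs outnumbered the other names at 259 hub bins, equalled them at 19 and were fewer at 5. In Input, 650 of 967 combinations at hub bins were arriving RNAs (67.2%, 64.2 to 70.1), and in H3K27me3-RADIP 1331 of 1771 (75.2%, 73.1 to 77.1). Other bins had 51.6% and 56.6%. This share is likewise bound up with the number of names. In all, 1849 combinations were listed at hub bins, of which 889 were in both libraries, 882 in H3K27me3-RADIP alone and 78 in Input alone. Of the combinations in both, 65.8% were arriving RNAs at a median distance of 121 kb, and 10.1% were over 1 Mb. Those of H3K27me3-RADIP alone were arriving RNAs in 84.6%, with a median of 342 kb and 28.1% over 1 Mb, and those of Input alone in 83.3%, with a median of 254 kb and 20.5% over 1 Mb. Combinations of a single library had fewer pairs, with medians of 10 in H3K27me3-RADIP and 9 in Input, than those in both, with 13 in Input and 18 in H3K27me3-RADIP. At the combinations in both libraries, H3K27me3-RADIP had more pairs in 74.2%, with a median ratio of 1.33, against 49.4% and 1.0 over 48563 such combinations in all bins. Since 252 of the 283 bins passed the limit in H3K27me3-RADIP alone, this direction was in part fixed by their choice, and the 19 hubs of Input alone held 1958 pairs in Input, against 1772 in H3K27me3-RADIP.

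The hub bins were unevenly spread over the chromosomes. Chromosome 8 had 84 of the 283 (29.7%) and 6.48% of the bins with a cis pair, so 2.64% of its bins were hubs. Chromosome 6 had 34, chromosome 2 had 30, chromosome 7 had 24, chromosome 12 had 19, chromosome 4 had 17 and chromosome 11 had 14. Chromosomes 3 and X had 1 each. Chromosome 8 held 9 of the Input hub bins and 78 of the H3K27me3-RADIP ones, whereas all 24 on chromosome 7 and all 14 on chromosome 11 were hubs in H3K27me3-RADIP alone. Chromosome 8 also had the most listed pairs per length of the autosomes and X, with 907 cis pairs per Mb in Input and 1098 in H3K27me3-RADIP. Chromosome 11 came next with 819 and 917 pairs per Mb but had 0.436% hub bins. The part of pair density in the number of hub bins was not tested. Without chromosome 8, 199 hub bins remained, 22 in Input and 186 in H3K27me3-RADIP.

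**Figure D3:**
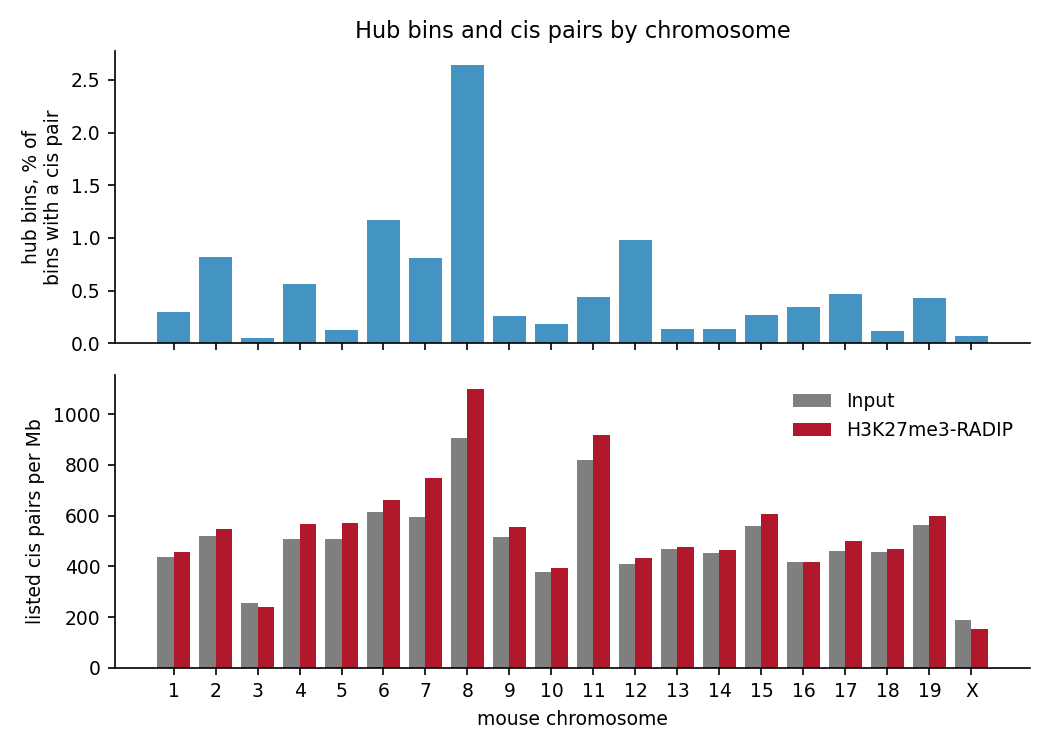
Hub bins as a percent of the bins with a cis pair (upper panel) and listed cis pairs per Mb in each library (lower panel) for the autosomes and X. Chromosome 8 had 2.64% hub bins and the most pairs per Mb in both libraries, and chromosome 11 had 0.436% with the next most pairs.

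Neighbouring hub bins formed 219 runs, of which 180 were single bins, 24 held 2 bins and 15 held 3 or more. With gaps of up to 1 Mb allowed, they fell into 105 groups. The largest was chr8:119400001-122700000, where 32 hub bins lay in 3.3 Mb, 3 of them hubs in Input and 30 in H3K27me3-RADIP. It held 56 coding gene starts, of which most are not named here. Among them are the forkhead transcription factor genes Foxf1 and Foxc2, which start in hub bins. Irf8 and the forkhead gene Foxl1 lie in the group as well, but do not start in a hub bin. Galnt2l was listed at all 32 bins, Ankrd11 at 21, Cmip at 20 and Mbtps1 and Slc7a5 at 16 each.

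The next group, chr8:11275001-13250000, had 16 hub bins and 23 coding gene starts, among them that of Sox1, a neural transcription factor gene. Mcph1, whose product acts in chromosome condensation, was listed at 14 of these hub bins, and the guanine nucleotide exchange factor genes Mcf2l and Arhgef7 at 12 and 11. The group chr6:91150001-92200000 had 13 hub bins and 14 coding gene starts, among them that of Wnt7a, which encodes a secreted signalling protein. The taurine transporter gene Slc6a6 and the junction scaffold gene Magi1 were listed at all 13 hub bins and Iqsec1 at 12. At chr2:27750001-29075000, with 12 hub bins, the Mediator subunit gene Med27 was listed at all 12 and Ddx31 and Rapgef1 at 11. At chr12:108300001-109475000, with 11 hub bins up to Dlk1, Evl was listed at all 11, Yy1 at 9 and the imprinted lncRNAs Meg3 and Rian at 7 each.

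The longest run, 6 bins at chr2:28675001-28825000, showed the same RNAs from bin to bin. Ddx31, a helicase gene, and Rapgef1, a guanine nucleotide exchange factor gene, were listed at all 6 bins in H3K27me3-RADIP, as were Med27, Ak8, Cfap77 and Gtf3c4. The 6 bins had 4 to 5 names in Input and 6 to 8 in H3K27me3-RADIP. Cfap77 was listed at 1 of the 6 in Input, with 8 pairs. The second run, 5 bins at chr8:119650001-119775000, had 3 to 6 names in Input and 5 to 7 in H3K27me3-RADIP. Wwox, an oxidoreductase gene, lies megabases away and had 10 pairs at 1 of these 5 bins in Input and between 9 and 21 pairs at each of the 5 in H3K27me3-RADIP. Mbtps1, the gene of site-1 protease, was listed at all 5 in both libraries, with 10 to 32 pairs in Input and 13 to 25 in H3K27me3-RADIP.

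A few RNAs recurred from hub bin to hub bin. The hub bins listed 895 RNA names, 544 in Input and 867 in H3K27me3-RADIP, with 516 in both. Most, 597, were listed at a single hub bin, 70 at 5 or more and 25 at 10 or more. The 10 most frequent made up 12.1% of the combinations and were found at 104 hub bins. Since 264 of the 283 hub bins passed the limit in H3K27me3-RADIP, larger numbers of hub bins there were in part fixed by their choice. This holds for each RNA below. Galnt2l, whose gene model spans 4435 kb of distal chromosome 8 and covers many other genes, was listed at 43 hub bins, 32 in Input and 43 in H3K27me3-RADIP. It arrived at 23 of these bins, and the span of its own tags overlapped the rest. Without Galnt2l there were 258 hub bins, 28 in Input and 241 in H3K27me3-RADIP.

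The other frequent RNAs were mostly arriving. Wwox was listed at 10 hub bins in Input and 29 in H3K27me3-RADIP, at a median distance of 4756 kb. This median and those in brackets below are over the pairs of both libraries. Cmip was listed at 10 and 26 (2387 kb) and Ankrd11, the gene of a chromatin regulator, at 14 and 20 (613 kb). These 3 arrived at each of their hub bins. Slc7a5, an amino acid transporter gene, was listed at 10 and 16 hub bins (135 kb), and Mbtps1 at 13 and 15 (109 kb). Mcph1 was listed at 6 and 15 (6685 kb), and Magi1 on chromosome 6 at 9 and 17 (2500 kb).

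On chromosome 7, the imprinted antisense lncRNA Kcnq1ot1 was listed at 9 hub bins in Input and 19 in H3K27me3-RADIP, with 236 and 628 pairs. At hub bins Kcnq1ot1 lay a median of 211 kb away in Input, against 795 kb in H3K27me3-RADIP. All 24 hub bins of chromosome 7 passed the limit in H3K27me3-RADIP alone, so this difference is bound up with their choice. Fgfr2, a growth factor receptor gene whose model here spans 2961 kb, was listed at 5 and 18 hub bins, at a median of 5919 kb over both libraries. Kcnq1ot1 and Fgfr2 met at 18 hub bins. More frequent meetings were those of Galnt2l with Cmip at 24 bins, with Ankrd11 at 22 and with Wwox at 20, and that of Cmip with Wwox at 21. Over the pairs of both libraries, the longest median distances among RNAs at 3 or more hub bins were those of Rbpms (20917 kb, 5 bins), Msi2 (17769 kb, 4 bins) and Tenm4 (15761 kb, 9 bins). Rbpms and Msi2 encode RNA-binding proteins. Rbpms was at 1 hub bin in Input and 4 in H3K27me3-RADIP, Msi2 at 0 and 4, and Tenm4 at 1 and 8. In Input the order was reversed, with 8118 kb for Rbpms and 42539 kb for Tenm4, from 9 pairs each. H3K27me3-RADIP had 20963 and 15621 kb.

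**Figure D4:**
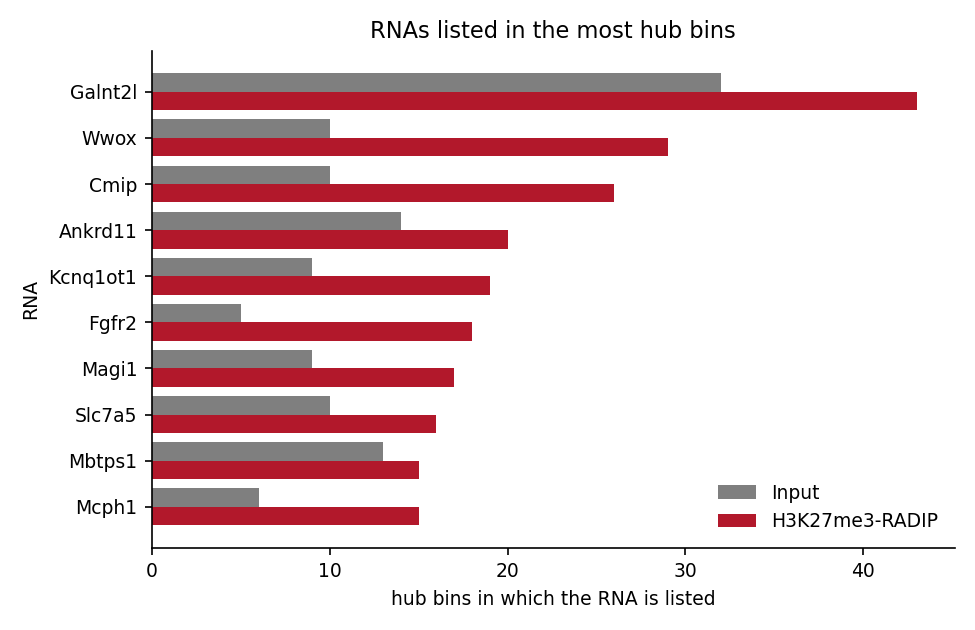
Hub bins (horizontal axis, number of bins) at which each of the 10 most frequent RNAs was listed in Input and in H3K27me3-RADIP. All 10 were listed at more hub bins in H3K27me3-RADIP, from 32 and 43 for Galnt2l to 6 and 15 for Mcph1. Since 264 of the 283 hub bins passed the limit in H3K27me3-RADIP, this direction was in part fixed by their choice.

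Protein-coding genes gave 91.9% of the hub pairs in Input and 92.3% in H3K27me3-RADIP, and 97.0% and 96.5% at other bins. Long non-coding RNAs gave 7.12% (6.74 to 7.52) and 7.13% (6.85 to 7.41) at hub bins, against 2.86% and 3.38% at other bins. The Neat1 bin on chromosome 19 carried much of this: without it the shares at hub bins were 4.78% (4.46 to 5.11) in Input and 5.83% (5.58 to 6.10) in H3K27me3-RADIP. Intronic RNA tags made up 80.1% and 82.6% of the hub pairs and 88.6% and 89.0% of the others. Of the 1396 arriving combinations, 15.4% (13.6 to 17.39) were of RNAs whose gene starts in a hub bin. By name this was 64 of 573 arriving RNAs (11.2%, 8.84 to 14.01), against 396 of 12067 RNA names on the same chromosomes (3.28%). That baseline holds names at any distance from a hub bin. Hub bins lie close together, 103 of them in runs of 2 or more, so nearby sources often fall in hub bins by position. Names at a like distance were not compared.

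The bin with the start of Lmx1b, chr2:33625001-33650000, had the most names in both libraries together, 6 in Input and 10 in H3K27me3-RADIP. Lmx1b encodes a LIM homeodomain transcription factor of the limb, kidney and neurons. The Lmx1b transcript itself was listed with 10 pairs in Input, against 28 in H3K27me3-RADIP, and its divergent lncRNA C130021I20Rik had 0 and 9. The other 8 RNAs arrived. Ralgps1, 401 kb away, had 23 and 43 pairs, and Mvb12b, a subunit gene of the ESCRT-I sorting complex at 155 kb in H3K27me3-RADIP, had 10 and 41. Pbx3, another homeodomain gene (683 kb in H3K27me3-RADIP), had 10 and 19 pairs, Garnl3 (576 kb) had 10 and 25, and Mapkap1, an mTORC2 subunit gene (887 kb), had 9 and 15. All 6 RNAs listed in Input thus had more pairs in H3K27me3-RADIP. The RNAs from farthest away were listed in H3K27me3-RADIP alone: Camk1d at 28024 kb with 11 pairs, Etl4 at 13075 kb with 18 and Dennd1a at 4382 kb with 8.

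At chr8:121075001-121100000, the bin with the starts of Foxf1, a forkhead factor gene of lung and gut mesoderm, and of its divergent lncRNA Fendrr, 3 names were listed in Input and 10 in H3K27me3-RADIP. Fendrr had 0 and 16 pairs, while Foxf1 RNA was not among the names. Galnt2l, whose model covers the bin, had 69 and 143 pairs, Mthfsd 12 and 26, and Ankrd11 9 and 10. Arriving RNAs of H3K27me3-RADIP alone were Slc7a5 with 31 pairs at 813 kb, Zcchc14 with 21 at 560 kb and Cmip with 10 at 3771 kb. Wwox had 9 pairs at 6290 kb and Mbtps1 and Klhdc4 had 8 each.

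The bin chr8:70475001-70500000 had 4 names in Input and 9 in H3K27me3-RADIP. The local RNA Klhl26 had 23 and 27 pairs, and the local Tmem59l had 0 in Input and 8 in H3K27me3-RADIP. Gatad2a, a subunit gene of the NuRD chromatin remodelling complex, had 16 and 28 pairs, the CREB coactivator gene Crtc1 had 12 and 28, and Ell, an elongation factor gene, had 15 and 14. Upf1, the helicase gene of nonsense-mediated decay, had 0 and 19. Of the RNAs named for this bin, Ell alone had fewer pairs in H3K27me3-RADIP than in Input.

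At chr9:45125001-45150000, with the start of the sodium channel subunit gene Scn4b, 2 names were listed in Input and 9 in H3K27me3-RADIP. Scn4b had 7 and 11 pairs, and Dscaml1, a cell adhesion gene at 401 kb in Input, had 16 and 19. The other 7, among them the histone methyltransferase gene Kmt2a with 10 pairs and the kinase gene Sik3 with 10, were listed in H3K27me3-RADIP alone with 8 to 12 pairs each. These counts lie close to the lowest number of pairs a listed combination had, 7.

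**Figure D5:**
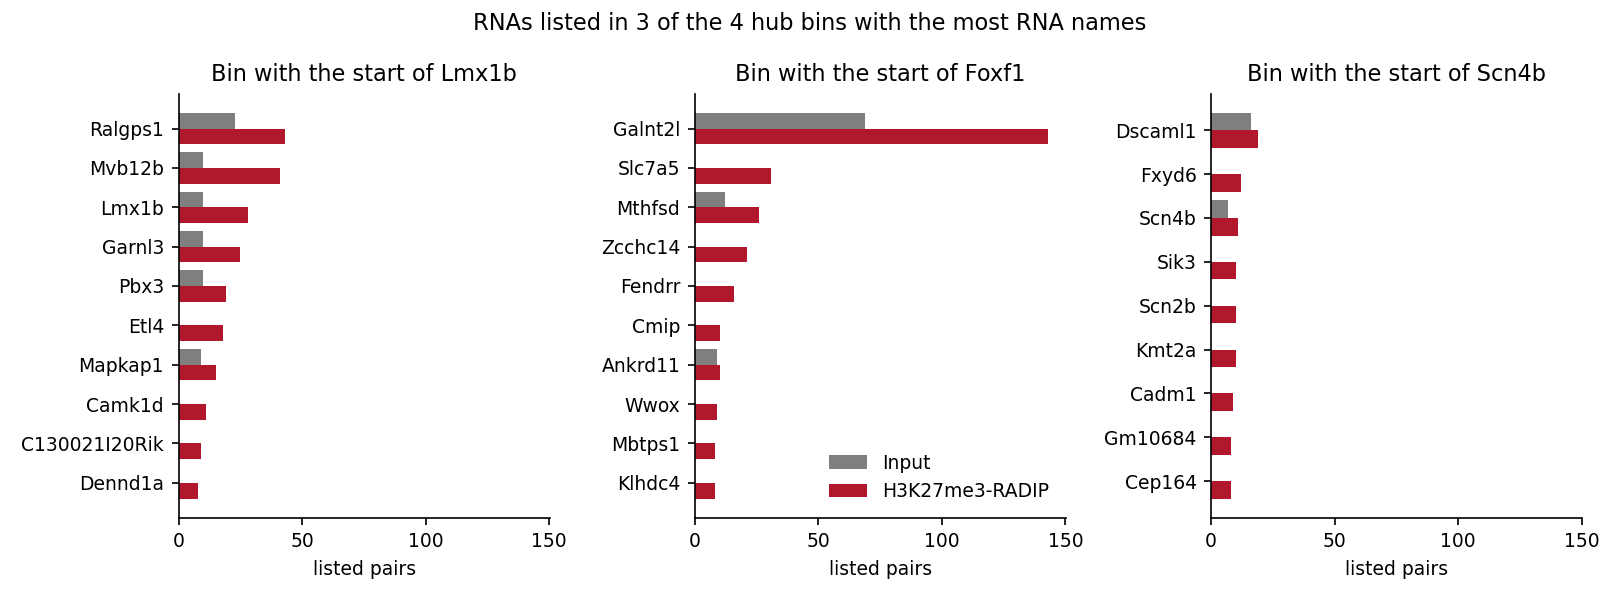
Listed pairs (horizontal axis) of each RNA at 3 of the 4 hub bins with the most RNA names, named by a gene that starts there, in Input and in H3K27me3-RADIP. Galnt2l at the Foxf1 bin stood highest with 69 and 143 pairs, and RNAs with no Input bar were not listed in Input.

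Of the next 6 bins by names, the one at Neat1, chr19:5825001-5850000, was of another kind. Neat1, the lncRNA that builds nuclear paraspeckles, had 400 pairs there in Input, and 404 in H3K27me3-RADIP, at median distances of 1.959 and 1.705 kb. Its names numbered 7 and 8, but Gm27505, Gm27533 and Gm28006 are short gene models inside Neat1. Malat1, the abundant lncRNA of nuclear speckles made nearby, had 24 and 33 pairs. Only 3 of its 9 names were arriving RNAs.

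Near Begain on chromosome 12, the bins at chr12:108850001-108875000 and chr12:109050001-109075000 had 5 names each in Input and 8 each in H3K27me3-RADIP. Meg3 had 11 and 11 pairs at the first and 8 and 16 at the second, and Rian had 11 and 10, and 9 and 18. Yy1, the gene of a zinc finger transcription factor, had 21 and 35 pairs at the first and 0 and 14 at the second. The bin with the start of Wnt7a, chr6:91400001-91425000, had 5 names in Input and 8 in H3K27me3-RADIP. Wnt7a had 13 and 12 pairs there, Iqsec1 32 and 50, Slc6a6 14 and 29, and Magi1, 2498 kb away in Input, 16 and 19.

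The largest gain of names was at chr5:35375001-35400000, which holds the start of the homeobox gene Hmx1. It had no name in Input and 8 in H3K27me3-RADIP, with 91 pairs. Hmx1 had 12 pairs there, its neighbour E130018O15Rik 11, and the arriving Fam193a, Sh3tc1, Rgs12, Trmt44, Apbb2 and Sorcs2 between 8 and 14. After 2 gains of 7, at the Foxf1 and Scn4b bins, 15 hub bins gained 6 names, of which those with the most pairs were chr8:120400001-120425000, from 1 to 7, and chr8:84775001-84800000 over Nfix, from 2 to 8. Nfix, a nuclear factor I transcription factor gene, had 35 and 59 pairs there, and the calcium channel gene Cacna1a 19 and 39.

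The largest losses of names were smaller. At chr8:25725001-25750000 the names went from 6 in Input to 2 in H3K27me3-RADIP. Ddhd2 had 52 and 33 pairs and the histone methyltransferase gene Nsd3 26 and 20, while Ash2l, Lsm1, Plpp5 and Rbpms were listed in Input alone with 8 to 13. At chr6:120425001-120450000, also from 6 to 2, Kdm5a, a histone demethylase gene over the bin, had 51 and 26 pairs. Wnk1 had 10 and 10, and Atp6v1e1, B4galnt3, Cecr2 and Erc1 were in Input alone with 8 to 10. The bins chr1:93300001-93325000 and chr10:85100001-85125000 went from 6 to 3. A loss of 2 names was found at 7 hub bins, among them chr8:25800001-25825000 with the most pairs.

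GC content moved with the names over all bins. The median GC content was 51.4% at hub bins and 43.9% at other bins, and CG dinucleotides per kb were 15.5 at hub bins and 10.04 over all bins with a cis pair. Bins with 4 or 5 names lay between, with a median GC of 48.5% and 13.5 CG per kb. Hubs in H3K27me3-RADIP alone had a median of 51.4% and the 19 hubs in Input alone 50.4%. Of all bins with a cis pair, those with at least 2 more names in H3K27me3-RADIP had a median GC of 47.7%, and those with at least 2 more in Input 42.8%. The part of GC content in the counts was not tested.

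Hub bins were rich in gene starts. A protein-coding gene started in 170 of the 283 (60.1%, 54.3 to 65.6), against 23.5% of other bins with a cis pair. The 2583 bins with 4 or 5 names lay between, with 46.7%, so this share rose with the number of names. Of the hub bins, 45 held at least 2 such starts and 16 overlapped no protein-coding gene. At 11 hub bins (3.89%, 2.18 to 6.83) no listed RNA tag lay within the bin in either library, against 27.6% of other bins. In the last 5th of the chromosome's length lay 41.0% of the hub bins and 24.4% of the others. Trans pairs, from RNAs of other chromosomes, were not used by the rule and were listed at 33 hub bins (11.7%, 8.43 to 15.9) and at 1.42% of other bins. Bins with 4 or 5 names lay between in these traits too. No listed RNA tag lay within 9.45% of them, 34.6% were in the last 5th and 5.34% had a trans pair. These traits are thus not particular to hub bins.

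Of the gene lists, the Hox cluster genes, developmental transcription factors of the body axis and limbs, had the largest share of starts in hub bins. Among 32 Hox genes whose start lay in a bin with a cis pair, 10 started in hub bins (31.3%), against 238 of all 14898 protein-coding genes (1.60%). These 10 starts shared 3 bins and are not independent. The bin chr6:52200001-52225000, with the starts of Hoxa3, Hoxa5, Hoxa6 and Hoxa7, had 2 names in Input and 6 in H3K27me3-RADIP. Snx10 had 12 and 22 pairs there at 650 kb in H3K27me3-RADIP, Skap2 had 8 and 11, and Hibadh, Exoc4 and Snd1 had 0 and 22, 16 and 9. Snd1 lay 23356 kb away and Exoc4 18651 kb.

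The neighbouring bin chr6:52225001-52250000, with the starts of Hoxa9, Hoxa10 and Hoxa11, had 2 names in Input and 8 in H3K27me3-RADIP. Hibadh, a metabolic enzyme gene at 356 kb in H3K27me3-RADIP, had 9 and 37 pairs. Hoxa10, Hoxa11 and the antisense Hoxa11os were listed in H3K27me3-RADIP alone with 10, 7 and 7 pairs, while Hoxa9 was listed in Input alone with 9. All RNA tags at hub bins lay on the strand of the gene they were assigned to, so sense and antisense names were kept apart. The third bin, chr11:96275001-96300000 at Hoxb6, Hoxb7 and Hoxb8, had 2 and 6 names. Hoxb6 had 7 pairs in both libraries, Hoxb9 had 0 and 12, and the arriving Msi2 had 0 and 8 at 7757 kb.

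A further list held developmental transcription factor genes known as Polycomb targets in stem cells, so it was picked for the mark that the antibody selects. Of its 57 genes in bins with a cis pair, 6 started in hub bins (10.53%), at 5 bins. Besides Foxf1, they were Pax7, of muscle and neural crest (3 names in Input and 7 in H3K27me3-RADIP), Gata2, of blood progenitors (3 and 7), Sox1 (4 and 6), and Dlx1 and Dlx2, of forebrain interneurons, in 1 bin (3 and 6). At the Gata2 bin, chr6:88175001-88200000, Gata2 had 0 and 15 pairs and Eefsec, a selenoprotein elongation factor gene, 57 and 95. At the Pax7 bin, chr4:139825001-139850000, Pax7 had 10 and 12 pairs, Igsf21 had 9 and 17, and Arhgef10l, 745 kb away, had 0 and 24. At the Sox1 bin, chr8:12375001-12400000, Tubgcp3 had 9 and 24 pairs and Mcph1, 6288 kb away in H3K27me3-RADIP, had 9 and 15, while Sox1 RNA was not listed. At the bin of Dlx1 and Dlx2, chr2:71525001-71550000, the antisense Dlx1as had 0 and 11 and Hat1, a histone acetyltransferase gene, 17 and 28.

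Of 40 imprinted genes, 2 started in hub bins (5.0%). At the Dlk1 bin, chr12:109450001-109475000, the names went from 2 to 8, with Rian at 14 and 44 pairs, Meg3 at 9 and 36 and Dlk1 itself at 0 and 11. At the Kcnq1 bin, chr7:143100001-143125000, they went from 2 to 6, with Kcnq1ot1 at 68 and 129 pairs, Kcnq1, a potassium channel gene, at 0 and 19, and the imprinted Nap1l4 at 13 and 0. Eef2 was the single one of 20 housekeeping genes (5.0%), in a bin with 4 and 6 names. Neat1 was the single one of 12 chromatin-retained lncRNAs. None of the 19 pluripotency transcription factor genes, 12 PRC2 and 18 PRC1 subunit genes, 13 small nucleolar RNA host genes and 18 genes of the major histocompatibility region started in a hub bin. Lists of that size would hold less than 1 hub start at the share of all coding genes, so these counts of 0 do not set them apart.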

How the data were processed

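RADIP libraries of PGK12.1 mESCs were compared as Input and H3K27me3-RADIP, each deposited as 1 table in which the libraries listed in the labels had been merged. The authors split each read at the bridge adaptor, aligned both tags to mm10 using BWA, retained pairs with unique mapping (MAPQ 37), removed pairs in blacklisted regions, assigned RNA tags to GENCODE genes and DNA tags to 25-kb bins, and fitted a modified CHiCANE negative binomial model. BWA 0.7.15-r1140 is named in the submitters' processing notes. The values in the deposited tables are p-values and q-values per RNA and bin, and the authors had dropped all pairs whose q-value exceeded 0.1. The deposited tag positions are mm10 coordinates, and tables hold no counts, so lines were counted. Each RNA's number of pairs therefore moves with the depth and with the background model.

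Bins with at least 6 different cis RNA names in either table were taken as hub bins. The members, gene lists and rules were chosen with earlier results of these data known. Distances were taken between tag centres. Shares carry 95% Wilson intervals and differences Newcombe intervals, which reflect counting error alone, because the libraries were merged and no molecular identifiers are given. Of the hub pairs, 7.31% in Input and 9.99% in H3K27me3-RADIP repeated both tag positions of an earlier pair, against 6.78% and 9.72% of all cis pairs. At this depth 3 pairs are 0.000231% of the cis pairs in Input and 0.000213% in H3K27me3-RADIP. No test was made, because there is 1 merged table per group and the bins were chosen on the counts.

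Gene positions came from a GENCODE release older than the authors' release on the same build, bin sequence from GRCm38.p6, and promoters from RefSeq on that build. The promoter of Foxf1 was not used here, and 1 RNA that meets the rule for named RNAs is not reported here. Named bins were the 10 with the most names in either library, the 5 with the largest gain and the 5 with the largest loss of names in H3K27me3-RADIP and those of the 2 longest runs. Ties in names, as among the 19 bins at 8, went to the larger sum of names over both libraries, then by position. Ties in gain or loss went to the larger sum of pairs, then by position. Named RNAs were those of these bins, the 10 at the most hub bins, the 5 with the longest median distance among RNAs at 3 or more hub bins, and members of the gene lists. RNAs and genes of the largest groups, of the trans pairs and of bins of list members were named after their values were seen. Calculations used Python 3.11.15, pandas 2.3.3, numpy 2.4.6, pysam 0.24.0 and matplotlib 3.10.9, and the counting steps were tested on simulated tables. Alternatives were a q-value limit of 0.01, limits of 5 and 8 names, gene identifiers, at least 13 pairs per combination, bins shifted along the genome and repeated pairs counted once.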

Additional observations from a re-analysis of the deposited data

Results flagged for a closer look

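Trans pairs lay outside the cis counts that define the hub bins, and the hub bins held 262 of them in Input and 687 in H3K27me3-RADIP. Other bins with a cis pair held 4018 and 3827, and all bins together 4280 and 4514. As 252 of the 283 hub bins passed the limit in H3K27me3-RADIP alone, the direction at hub bins was not independent of their choice. A single bin on chromosome 11, chr11:3150001-3175000, held 171 of the Input pairs, from 9 RNAs, and 396 of the H3K27me3-RADIP pairs, from 28 RNAs of other chromosomes. Outside that bin, the trans pairs at hub bins were of Gm22973 or Malat1 only. Over all hub bins Gm22973 gave 115 in Input and 179 in H3K27me3-RADIP, and Malat1 gave 54 and 198. Malat1 gave 14 trans pairs in H3K27me3-RADIP at the Foxf1 bin and 14 at the Klhl26 bin, and none was listed there in Input. The difference between the libraries was not tested.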

How the results depend on the processing

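Of 72 recomputed values, 39 stayed within 1.5 times the count or within the counting interval of the value given, 33 moved, and 0 changed sign. Only the differences in the share of cis pairs and in pairs over 100 kb could change sign, as the other values are counts or shares. At a q-value limit of 0.01 there were 89 hub bins (3 in Input, 88 in H3K27me3-RADIP), 97.8% with more names in H3K27me3-RADIP, a difference of 0.448 points in the share of cis pairs and of 14.8 points in pairs over 100 kb, and 2.27% of H3K27me3-RADIP hubs were shared. With 5 names as the limit these were 882 bins (180 and 785), 84.1%, 2.03, 9.91 and 10.57%, with a coding start in 52.6%, and with 8 names 23 bins (0 and 23), 100%, 0.125, 17.39 and 0, with 73.9%. With at least 13 pairs per combination 14 bins were left (1 and 13), with 0.105 and 31.3 points and 0 shared. Bins shifted to start at the middle of the authors' bins gave 923 hub bins (187 and 845), since such a bin draws on 2 of theirs, with 85.6%, 1.90 points, 77.6% arriving and 12.9% shared. The following were chosen after seeing the data. With an equal number of cis combinations there were 177 hub bins (31 and 154), 84.2% and 0.642 points. Without Galnt2l the share differed by 0.869 points, and 0.868 when 105 genes nested in another listed gene were left out too. Without chromosome 8 it differed by 0.777 points, and pairs over 100 kb by 12.1 points. Gene identifiers and repeated pairs counted once moved none of the values they were run on. No paired analysis was possible because the replicates were merged into 1 table per group. Depth limits RNAs with few pairs: a listed combination had at least 7.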
